A study of Mus musculus with 12 samples.

Results

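Purine and pyrimidine nucleotide synthesis was followed here through 37 genes, listed by name, which span the supply of PRPP (the activated ribose that every nucleotide is built on), the de novo pathways, salvage and the making of deoxynucleotides. The genes were listed by function, but with earlier results of these data known. A listed gene was kept if its normalized read count was at least 10 in at least 3 of 12 libraries. All 37 were found among 23479 rows and all 37 passed, out of 13111 genes that passed in all. The libraries come from 1 B cell lymphoma of a C57BL/6 mouse with the transgenes Eµ-Myc and Eµ-rtTA, grown in culture with interleukin-7 and selected with puromycin after infection with a retrovirus. Vector cells carry the empty virus. TFEB cells carry TFEB, which drives transcription of genes for lysosomes and autophagy, with an alanine in place of the serine at which mTORC1 restrains it, fused to the tamoxifen-responsive ER-T2 domain. Both lines were kept for 4 days in vehicle or in 4-hydroxytamoxifen (4-OHT), which switches ER-T2 fusions on, with 3 libraries in each of the 4 groups. The treatment text of the labels gives 250 nM of 4-OHT, but the design text writes this number with the unit ng/mL, and which of them holds is not known. Nothing in the labels says what separates the 3 libraries of a group, so p-values measure the spread between libraries only, which may be technical, and each line is a single transduced lymphoma.

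Cells assemble purines stepwise on PRPP until inosine monophosphate (IMP) is formed, which is then turned into AMP or GMP. Pyrimidines are assembled as a ring first and joined to PRPP afterwards, while salvage enzymes recycle bases and nucleosides that have already been made. Ribonucleotide reductase and its neighbours convert ribonucleotides into the deoxynucleotides used for DNA, and many genes of these pathways are known targets of MYC in lymphoid cells.

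Tfeb, which checks the labels, was at 223 to 255 normalized counts in vector cells in vehicle, 195 to 238 in vector cells in 4-OHT, 1476 to 1955 in TFEB cells in vehicle and 581 to 711 in TFEB cells in 4-OHT. Libraries held 11849029 to 22109283 reads, and 11390 to 19250 genes had any read, with the highest numbers in replicate 2 of vector cells in 4-OHT and replicate 2 of TFEB cells in 4-OHT. The summed level of 8 B lineage markers was 72516 to 84660.1 in the other 3 groups and 59143 to 61457 in TFEB cells in 4-OHT, where 5 of the 8 were called lower than in vehicle and 2 higher. The summed level of 7 T and NK cell markers was 320 to 623 in the other groups and 763 to 894 in TFEB cells in 4-OHT, nearly all of it Cd247, without which the sum was 10.5 to 73.6 in every library. Summed markers of macrophages and granulocytes (9 genes) were at 10.2 to 29.5 in vector cells in vehicle, 9.30 to 77.1 in vector cells in 4-OHT, 28.8 to 76.0 in TFEB cells in vehicle and 41.7 to 167 in TFEB cells in 4-OHT, where Csf1r was called higher than in vector cells (log2 3.82, adjusted p = 0.0354, at a mean of 29.2). That call was limma's alone, as edgeR and DESeq2 called no gene of this list there. Of 5 erythroid and platelet markers, Hbb-bs, Hba-a1 and Pf4 were at 0 in every library, and the sum of the list was 4.35 to 58.1. The 7 stroma and endothelium markers summed to 814 to 968 in the other groups and 691 to 875 in TFEB cells in 4-OHT. Most of this was Pecam1, without which the sum was 3.20 to 223 over the libraries. Pecam1 was called lower in TFEB cells in 4-OHT than in vector cells in 4-OHT (log2 -0.32, adjusted p = 0.0483). The part of these markers in the results was not tested. In RNA from a bulk culture, fewer cells of a kind and less RNA per cell cannot be told apart.

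The levels of the 37 genes, averaged over the 12 libraries and divided by exon length, ran from 19.1 normalized counts per kb for Ampd3 to 3553 per kb for Nme2, with a median of 543 per kb. Nme2, a nucleoside diphosphate kinase, was followed by Hprt at 2369 per kb, the purine salvage enzyme that uses hypoxanthine and guanine. Paics, a bifunctional enzyme of the de novo purine pathway, stood at 2042 per kb and Impdh2, which commits IMP to GMP, at 1899 per kb. Thymidylate synthase (Tyms), at 92.7 per kb, was the lowest after Ampd3. All genes but Ampd3 reached 10 normalized counts in all 12 libraries, and Ampd3 did so in 10.

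Promoter sequence was available from RefSeq (build GRCm38.p6) for 34 of the 37 genes, in 43 windows of 250 bases before to 50 bases after a start site. Pfas, Dhodh and Rrm2b were not matched. The E-box CACGTG is a letter sequence that MYC with MAX and the family of TFEB can bind. It was searched for because both lines carry the Eµ-Myc transgene and TFEB cells also carry the TFEB fusion. It was found in 8 of the 43 windows (18.6%), against 7.15% of all 32851 windows in the table, and belonged to 7 genes. All windows here and below include those of genes that did not pass the filter, so the shares are not matched for expression. The stretches of Paics, of Impdh2 and of Nme1 before another start lie wholly in annotated exons. These exons belong to Ppat, to Impdh2, and to Nme1 and Gm20390, in this order. Of the Atic stretch, 6 bases lie in an Atic exon. The stretches below show the E-box in capitals, on the strand of the gene and 5′ to 3′, and a match describes letters, not binding.
Paics, chr5:76951087-76951116, plus strand, 203 bases before the start: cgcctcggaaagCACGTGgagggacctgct
Atic, chr1:71557119-71557155, plus strand, 7 bases before the start: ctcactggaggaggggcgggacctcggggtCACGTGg
Impdh2, chr9:108560314-108560343, plus strand, 110 bases before the start: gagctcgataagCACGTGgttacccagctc
Ampd3, chr7:110772496-110772561, plus strand, 78 bases before a start: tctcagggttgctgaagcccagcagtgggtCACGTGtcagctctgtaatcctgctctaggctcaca
Nme1, chr11:93968026-93968084, minus strand, 29 bases before a start: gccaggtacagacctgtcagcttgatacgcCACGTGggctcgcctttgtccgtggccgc
Nme1, chr11:93968273-93968302, minus strand, 18 bases before another start: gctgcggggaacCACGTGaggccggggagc
Tyms, chr5:30073651-30073716, minus strand, 61 bases before the start: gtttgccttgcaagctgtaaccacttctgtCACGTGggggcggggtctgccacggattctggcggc
Dtymk, chr1:93802047-93802112, minus strand, 148 bases before the start: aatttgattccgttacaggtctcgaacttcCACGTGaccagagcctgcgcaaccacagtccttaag

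These 7 genes did not move together under 4-OHT in TFEB cells: Paics and Impdh2 fell, Ampd3 and Tyms rose, and Atic, Nme1 and Dtymk were not called, as the values given with each branch show. The longer palindrome TCACGTGA, the core of the element bound by the TFEB family, contains the E-box and was in none of the 43 windows and in 0.974% of all windows. Of 4 letter sequences used for E2F sites, TTTCCCGC was in 2 windows, those of Prps2 and Ppat, against 1.07% of all windows. TTTGGCGC, TTTGCCGC and TTTCGCGC were in none, against 0.514%, 0.441% and 0.323% of all windows. The CCAAT box was in 32.6% of the windows of these genes and in 37.4% of all. All motifs were searched on both strands.

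Adssl1, the gene with the smallest p-value of the 37 under 4-OHT in TFEB cells, had none of these motifs in its window. Its 250 bases before the start (chr12:112619797-112620046, plus strand) are printed in lower case throughout because nothing in them matched.
Adssl1: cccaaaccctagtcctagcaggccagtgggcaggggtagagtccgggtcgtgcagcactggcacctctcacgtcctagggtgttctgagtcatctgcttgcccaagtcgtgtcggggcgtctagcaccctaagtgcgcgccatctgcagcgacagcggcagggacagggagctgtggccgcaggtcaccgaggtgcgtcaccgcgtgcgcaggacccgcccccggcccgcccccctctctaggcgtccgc

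With 4-OHT in TFEB cells, 14 of the 37 genes fell and 6 rose, and 17 were not called. The genes that fell were Prps1, Ppat, Paics, Impdh1, Impdh2, Hprt, Ada, Pnp, Nme2, Rrm1, Rrm2, Tk1, Dck and Dut, and those that rose were Adsl, Adssl1, Ampd3, Aprt, Cmpk1 and Tyms. Calls were made with limma on log2(value + 1) over all 13111 genes at a Benjamini-Hochberg adjusted p under 0.05. In this comparison 27.5% of all tested genes were called, 13.9% lower and 13.7% higher. The 14 genes that fell are 37.8% of the 37 and the 6 that rose are 16.2%, so the share that fell lies above the background and the share that rose lies near it. The 3 libraries of each condition did not overlap for 16 genes that were lower and 7 that were higher (62.2% of the 37), against 18.4%, 19.6% and 38% of all tested genes lower, higher and in sum. The median log2 change of the 37 was -0.11, against 0.04 for all tested genes. Values after ± below are SDs over 3 libraries for levels in normalized counts and SEs for log2 changes, and every adjusted p is from limma unless another tool is named.

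**Figure D1:**
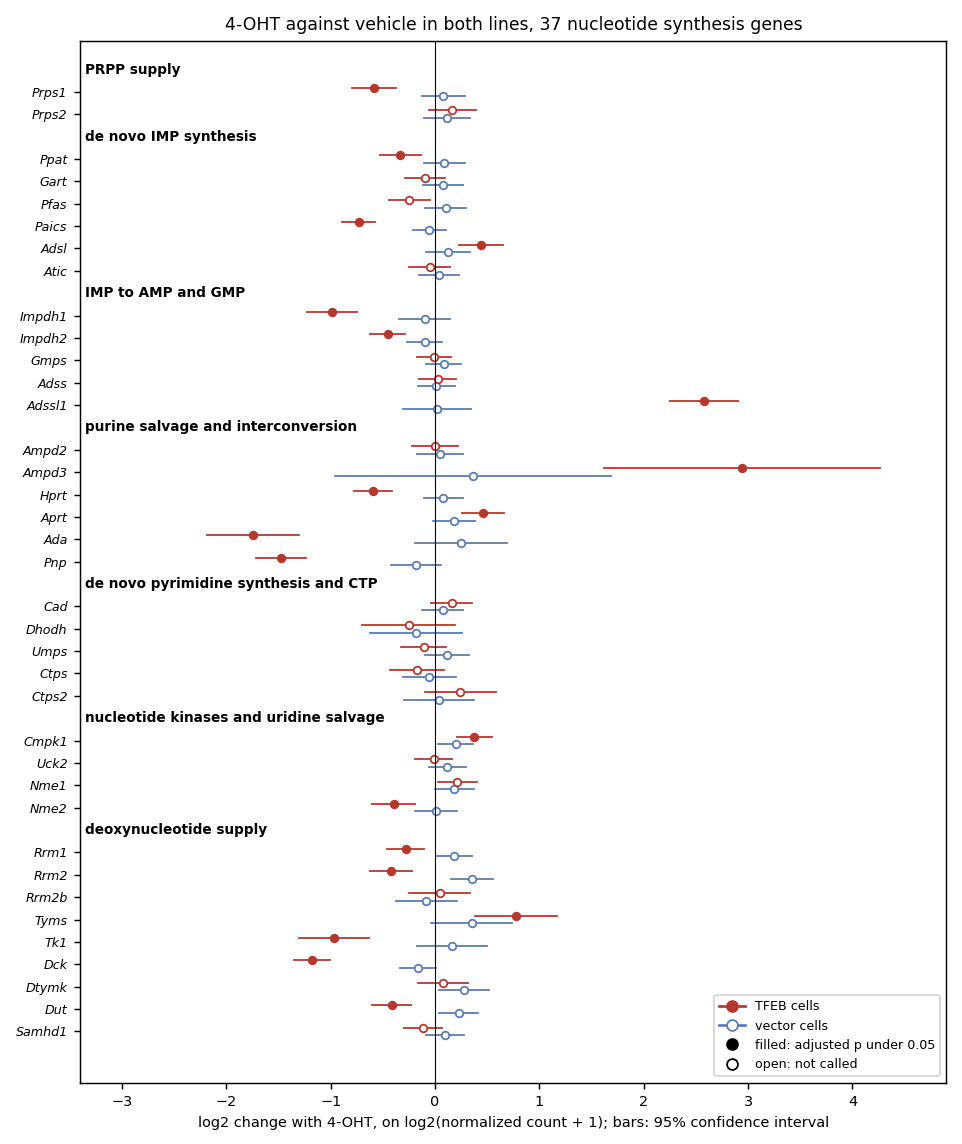
Log2 change of each of the 37 genes with 4-OHT against vehicle (x axis, log2 scale) in TFEB cells and in vector cells, with 95% intervals, genes grouped by branch. Filled points passed an adjusted p of 0.05 and open points did not. The TFEB cell values run from -1.75 for Ada to 2.94 for Ampd3, while the vector cell values lie between -0.18 and 0.37.

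In vector cells 4-OHT changed none of the 37 genes at the threshold, where 0.0153% of all tested genes (2 genes, both lower) were called. edgeR and DESeq2 on the recovered reads also called 0 of the 37, and 5 genes had an unadjusted limma p under 0.05: Cmpk1, Rrm1, Rrm2, Dtymk and Dut. The log2 changes ran from -0.18 to 0.37 with a median of 0.08, against 0.03 for all genes. The groups did not overlap for 7 genes (18.9%), Adsl, Cmpk1, Nme1, Tyms and Dut being higher in 4-OHT and Pnp and Dck lower, where 10.8% of all tested genes did not overlap, 5.43% higher and 5.34% lower.

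The effect of 4-OHT differed between the lines for 15 of the 37 genes, against 15.8% of all tested genes, in a test of the difference of the log2 changes in the same fit. It was more negative in TFEB cells for 14 genes (37.8%, against 8.01% of all tested genes) and more positive for Adssl1 alone (2.70%, against 7.75%). For Ppat, Impdh2 and Nme2 the call was lost under 11, 14 and 15 of 24 other settings, and with 1 library left out at a time 11 to 13 genes were called more negative. This test shares its libraries with the comparison within TFEB cells. Among the genes that rose in TFEB cells, Adsl, Aprt, Cmpk1, Tyms and Ampd3 did not pass the test of the difference. Their differences were 0.32 (95% interval 0.02 to 0.62), 0.28 (-0.01 to 0.57), 0.18 (-0.06 to 0.42), 0.43 (-0.13 to 0.98) and 2.57 (0.70 to 4.45) on the log2 scale. The difference for Ampd3 passed with edgeR and DESeq2.

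By branch, the genes that fell with 4-OHT in TFEB cells were 1 of 2 in PRPP supply, 2 of 6 in de novo IMP synthesis, 2 of 5 between IMP and AMP or GMP, 3 of 6 in purine salvage and interconversion, 0 of 5 in de novo pyrimidine and CTP synthesis, 1 of 4 among nucleotide kinases and uridine salvage, and 5 of 9 in deoxynucleotide supply. The genes that rose were 0, 1, 1, 2, 0, 1 and 1 in the same order. The median log2 changes were -0.21, -0.17, -0.01, -0.30, -0.11, 0.10 and -0.28. Branches of 2 to 9 genes are described by these counts only, and no test compared one branch with another.

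**Figure D2:**
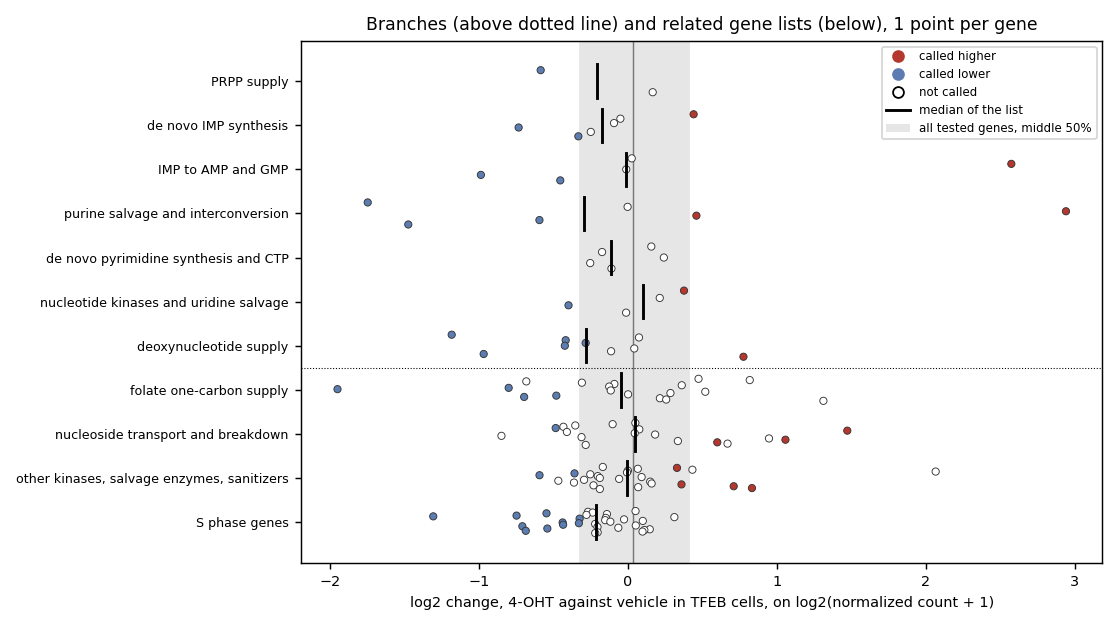
Log2 change with 4-OHT in TFEB cells (x axis, log2 scale) for each gene of the 7 branches and, under the dotted line, of related gene lists, with the median of each (bar), the median of all tested genes (grey line) and their middle 50% (grey band). The 5 pyrimidine genes lie between -0.25 and 0.24, and the salvage genes between -1.75 and 2.94.

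PRPP supply rests on the PRPP synthetases Prps1 and Prps2. Prps1 (X:140456613-140476140, mm10) had 1599, 1642 and 1942 normalized counts in vector cells in vehicle, 1667, 1853 and 1944 in vector cells in 4-OHT, 1467, 1417 and 1652 in TFEB cells in vehicle and 980.3, 999 and 1038 in TFEB cells in 4-OHT. The TFEB cells in 4-OHT lay below every other library. Prps1 fell in TFEB cells (log2 -0.58 ± 0.10, adjusted p = 3.14e-05), and the change differed from that in vector cells by -0.66 ± 0.14 (adjusted p = 0.001). Prps2 had 1339 ± 188 in TFEB cells in vehicle and 1494 ± 63.6 in 4-OHT, a log2 difference of 0.17 (95% interval -0.06 to 0.39) that was not called. Per kb of exon, Prps1 made up 68.0 ± 4.8% of the 2 synthetases' RNA in TFEB cells in vehicle and 55.9 ± 0.5% in 4-OHT, with 70.2 ± 3.5% and 69.7 ± 3.5% in vector cells. Prps1l3, a Prps1-like gene whose counts ran from 913 to 1713, rose 1.31-fold in TFEB cells (adjusted p = 0.0122), and the sources used here do not say how the counting divided reads between the 2 loci.

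De novo IMP synthesis is carried by 6 genes, of which 2 fell and 1 rose in TFEB cells. Paics (5:76951307-76967509) had 5580.3, 6091 and 6021 in vector cells in vehicle, 5656, 5539 and 5825 in vector cells in 4-OHT, 5371, 5792 and 5207 in TFEB cells in vehicle and 3153, 3375 and 3315 in TFEB cells in 4-OHT. The last 3 lay far below the 9 others, which overlapped between their groups. Paics fell 1.66-fold (log2 -0.73 ± 0.08, adjusted p = 5.68e-09), with a difference between the lines of -0.68 ± 0.11 (adjusted p = 2.36e-05).

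Ppat (5:76913249-76951578), the amidotransferase that commits PRPP to purine synthesis, had 2273, 2016 and 2485 in vector cells in vehicle, 2438, 2196 and 2548 in vector cells in 4-OHT, 1978, 2314 and 2398 in TFEB cells in vehicle and 1748, 1819 and 1731 in TFEB cells in 4-OHT. The TFEB groups did not overlap, the nearest values being 1978 and 1819. Ppat fell 1.26-fold (log2 -0.33 ± 0.10, adjusted p = 0.00871), but without a variance trend the adjusted p was 0.0539. Ppat and Paics lie on opposite strands with start sites 276 bases apart and share 272 exon bases, and the sources used here do not say whether reads were counted by strand.

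Adsl (15:80948490-80970946), the lyase that acts both before IMP and on the way to AMP, moved the other way. It had 1125, 1153 and 983 in vector cells in vehicle, 1203, 1175 and 1163 in vector cells in 4-OHT, 1115, 971 and 983 in TFEB cells in vehicle and 1453, 1333 and 1378 in TFEB cells in 4-OHT. All libraries of TFEB cells in 4-OHT lay above the rest. Adsl rose 1.36-fold in TFEB cells (log2 0.44 ± 0.10, adjusted p = 0.00124).

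The 3 other genes of the branch were not called in TFEB cells. Pfas, which makes FGAM, stood at 1832 ± 114 in vehicle and 1542 ± 72.2 in 4-OHT, a log2 difference of -0.25 (95% interval -0.45 to -0.05, adjusted p = 0.0537), and it passed under 7 of 25 other settings. Gart, a trifunctional enzyme, differed by -0.09 (-0.28 to 0.10) and Atic, which closes the purine ring, by -0.05 (-0.25 to 0.15). Gart had the highest count of the 37 genes before length is taken into account, 5465 on average.

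Between IMP and the adenine and guanine nucleotides, the adenylosuccinate synthase isozymes parted, while Impdh1 and Impdh2 both fell. Adssl1 (12:112620045-112641360), the adenylosuccinate synthase known from muscle, had 275, 318 and 258 in vector cells in vehicle, 266, 329.8 and 266 in vector cells in 4-OHT, 257, 302 and 232 in TFEB cells in vehicle and 1479.7, 1539.9 and 1688 in TFEB cells in 4-OHT. The other 9 libraries overlapped and none passed 329.8. Adssl1 rose 5.96-fold (log2 2.57 ± 0.16, adjusted p = 3.78e-14), with a difference between the lines of 2.56 ± 0.23 (adjusted p = 3.14e-10). Adss, the widely expressed isozyme, was at 2496 ± 157 and 2541 ± 97.7 in TFEB cells, a log2 difference of 0.03 (95% interval -0.15 to 0.20). Per kb, Adssl1 made up 13.6 ± 1.9% of the pair in TFEB cells in vehicle and 47.8 ± 1.2% in 4-OHT, against 14.03 ± 2.1% and 14.03 ± 1.6% in vector cells.

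On the GMP side, Impdh1 (6:29200434-29216364) had 982, 1188 and 1081 in vector cells in vehicle, 920.0, 950.3 and 1174 in vector cells in 4-OHT, 1398, 1301 and 1395 in TFEB cells in vehicle and 598, 729 and 746 in TFEB cells in 4-OHT. TFEB cells were thus the highest group in vehicle and the lowest in 4-OHT. The fall within TFEB cells was 1.98-fold (log2 -0.99 ± 0.12, adjusted p = 6.95e-08) and differed from vector cells by -0.89 ± 0.17 (adjusted p = 0.000209), while the TFEB to vector difference in vehicle, 0.34 (95% interval 0.09 to 0.58), was not called (adjusted p = 0.102).

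Impdh2 (9:108560286-108565584) had 3731, 4288 and 4057 in vector cells in vehicle, 3816, 3703 and 3733 in vector cells in 4-OHT, 3631, 4006 and 3363 in TFEB cells in vehicle and 2631, 2669 and 2713 in TFEB cells in 4-OHT. The lowest library outside the last group was 3363. Impdh2 fell 1.37-fold (log2 -0.45 ± 0.08, adjusted p = 7.11e-05), and its difference between the lines (-0.35 ± 0.12, adjusted p = 0.0364) was lost under 14 of 24 other settings, with adjusted p up to 0.127. Impdh1 made up 20.3 ± 2.0% of the pair per kb in TFEB cells in vehicle and 14.9 ± 1.3% in 4-OHT. In vector cells it was 15.5 ± 0.4% in vehicle and 15.5 ± 1.9% in 4-OHT, so TFEB cells in vehicle were the group that stood apart. Gmps, the GMP synthetase after these enzymes, differed by -0.01 (95% interval -0.18 to 0.16).

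**Figure D3:**
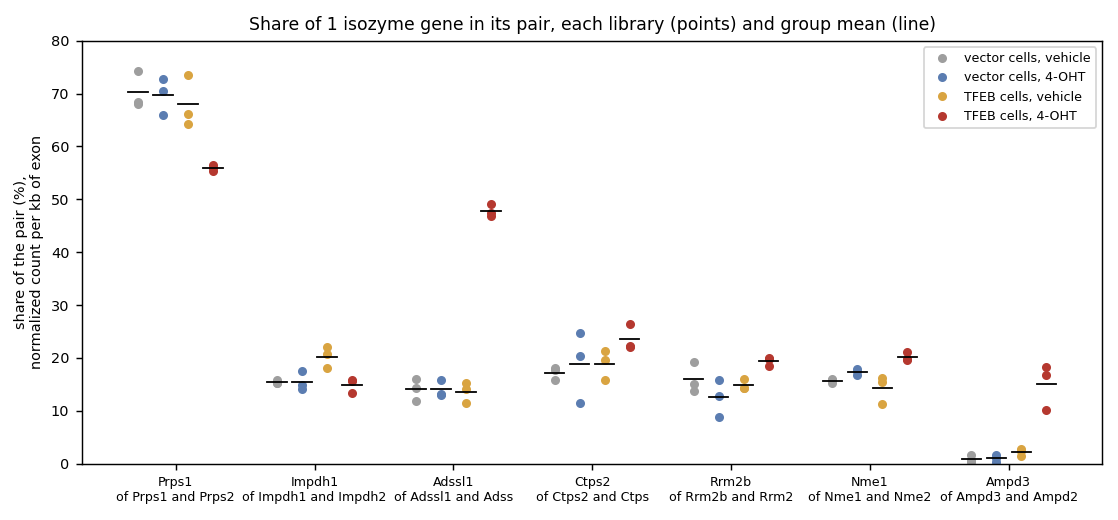
Share of one isozyme in the summed level of its pair, per kb of exon (y axis, percent), for each library (points) in the 4 groups, with group means (lines). Adssl1 goes from 13.6% to 47.8% with 4-OHT in TFEB cells, and Ampd3 from 2.2% to 15.1%.

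Purine salvage and interconversion had the widest range of changes. Ada (2:163726584-163750239), adenosine deaminase, had 252, 263 and 211 in vector cells in vehicle, 245, 298 and 320.4 in vector cells in 4-OHT, 353, 365 and 357 in TFEB cells in vehicle and 115, 119 and 87.3 in TFEB cells in 4-OHT. The highest value of the last group was 119 and the lowest elsewhere was 211. Ada fell 3.35-fold (log2 -1.75 ± 0.22, adjusted p = 1.19e-07), and the difference between the lines was -1.99 ± 0.31 (adjusted p = 1.08e-05).

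Pnp (14:50931082-50965237), the purine nucleoside phosphorylase that acts after Ada, had 934, 933 and 914 in vector cells in vehicle, 734, 909 and 814 in vector cells in 4-OHT, 1302, 1441 and 1310.5 in TFEB cells in vehicle and 428, 506 and 528 in TFEB cells in 4-OHT. The TFEB cells held both extremes, with no overlap with vector cells in either condition. Pnp fell 2.78-fold in TFEB cells (log2 -1.47 ± 0.12, adjusted p = 1.48e-11) with a difference between the lines of -1.29 ± 0.17 (adjusted p = 6.47e-07). Pnp2, the neighbouring copy, stayed at 0 to 26.3. Another gene on the same strand, Gm49342, overlaps 23.3% of the Pnp exon bases. It was not counted as a gene of its own, so reads counted for Pnp may include some of Gm49342.

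Hprt fell 1.51-fold, from 3306 ± 279.9 to 2189.6 ± 148 (log2 -0.59 ± 0.09, adjusted p = 3.87e-06), and the difference between the lines was -0.67 ± 0.13 (adjusted p = 0.000193). Aprt, which salvages adenine, rose 1.38-fold, from 1684 ± 114 to 2325 ± 282 (log2 0.46 ± 0.10, adjusted p = 0.000594). The purine base salvage enzymes thus had opposite calls in TFEB cells.

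Ampd3 (7:110768206-110812405), an AMP deaminase isozyme that converts AMP back to IMP, had 12.5, 25.2 and 4.35 in vector cells in vehicle, 23.6, 5.93 and 22.8 in vector cells in 4-OHT, 42.8, 34.1 and 22.1 in TFEB cells in vehicle and 294, 337 and 161 in TFEB cells in 4-OHT. The lowest of these values is near the 2.21 to 4.15 normalized counts that 3 reads stand for, and only the last group exceeded 42.8. Ampd3 rose 7.68-fold in TFEB cells on the log2(value + 1) scale (log2 2.94 ± 0.65, adjusted p = 0.000688). Ampd2, the main isozyme here at 1306 ± 94.2 and 1303 ± 31.4, differed by 0.00 (95% interval -0.22 to 0.22). Ampd3 made up 2.2 ± 0.8% of the pair per kb in TFEB cells in vehicle and 15.1 ± 4.4% in 4-OHT, with 0.9 ± 0.7% and 1.0 ± 0.6% in vector cells.

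De novo pyrimidine and CTP synthesis had no call among its 5 genes in TFEB cells, none at an unadjusted limma p under 0.05, and none with edgeR or DESeq2. Cad (5:31054780-31078479), which carries the opening steps of the pathway in 1 protein, had 3605, 3344 and 3155 in vector cells in vehicle, 3167, 3285 and 4257 in vector cells in 4-OHT, 3170.4, 3230.2 and 2856 in TFEB cells in vehicle and 3497, 3663 and 3169 in TFEB cells in 4-OHT. All 4 groups overlapped. The log2 difference in TFEB cells was 0.16 (95% interval -0.04 to 0.36).

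The other 4 were not called either, and their 95% intervals reach changes as large as some that were called in other branches. Dhodh, the mitochondrial step, differed by -0.25 (95% interval -0.70 to 0.19) at a level of 302 ± 81.3 in vehicle, and Umps, which makes UMP, by -0.11 (-0.32 to 0.10). The CTP synthases Ctps and Ctps2 differed by -0.17 (-0.43 to 0.08) and 0.24 (-0.10 to 0.58). Ctps was called lower only with array weights (adjusted p = 0.0419). Ctps2 made up 18.9 ± 2.9% of the pair per kb in TFEB cells in vehicle and 23.6 ± 2.5% in 4-OHT. In vector cells it was 17.2 ± 1.2% in vehicle and 18.8 ± 6.7% in 4-OHT, where libraries ran from 11.5% to 24.6%.

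Among the kinases, Cmpk1 and Nme2 moved in opposite directions. Cmpk1 (4:114959336-114987241), the UMP/CMP kinase, had 1949.8, 2023 and 2099 in vector cells in vehicle, 2321, 2327 and 2309.9 in vector cells in 4-OHT, 1888, 1853 and 1991 in TFEB cells in vehicle and 2391, 2464 and 2589 in TFEB cells in 4-OHT. The 4-OHT libraries lay above the vehicle libraries in both lines. Cmpk1 rose 1.30-fold in TFEB cells (log2 0.38 ± 0.08, adjusted p = 0.000758). In vector cells the log2 difference was 0.20 (95% interval 0.03 to 0.37, adjusted p = 0.712).

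Nme2 (11:93949814-93956259) had 4378, 4516 and 4152 in vector cells in vehicle, 4101, 4259 and 4813 in vector cells in 4-OHT, 3945, 5563 and 4041 in TFEB cells in vehicle and 3349.9, 3524 and 3283 in TFEB cells in 4-OHT. Replicate 2 of TFEB cells in vehicle, at 5563, stood apart from the 2 others of its group. Nme2 fell 1.32-fold (log2 -0.40 ± 0.10, adjusted p = 0.0024), a call lost without a variance trend (adjusted p = 0.0589). Its difference between the lines was -0.41 ± 0.14 (adjusted p = 0.0434), and without that replicate it was -0.25 (adjusted p = 0.176).

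Nme1 was at 2033 ± 76.5 and 2359 ± 99.5 in TFEB cells, a log2 difference of 0.21 (95% interval 0.03 to 0.40, adjusted p = 0.08) that passed with DESeq2 and with array weights (adjusted p = 0.0259). It made up 14.3 ± 2.7% of the pair per kb in vehicle and 20.1 ± 0.9% in 4-OHT, with 15.7 ± 0.5% and 17.4 ± 0.7% in vector cells. A readthrough transcript, Gm20390, covers 48.9% of the Nme2 exon bases, so reads of Nme1 and Nme2 may not be fully separable. Uck2, the uridine-cytidine kinase, differed by -0.01 (-0.19 to 0.17).

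Deoxynucleotide supply had the most genes that fell, 5 of 9. Dck (5:88764996-88783281), deoxycytidine kinase, had 3225, 3256 and 3511 in vector cells in vehicle, 3019, 3119 and 2769.8 in vector cells in 4-OHT, 3404, 3236 and 3009 in TFEB cells in vehicle and 1442, 1390.2 and 1413 in TFEB cells in 4-OHT. No library outside the last group was under 2769.8. Dck fell 2.27-fold (log2 -1.18 ± 0.08, adjusted p = 1.05e-12), with a difference between the lines of -1.02 ± 0.12 (adjusted p = 1.1e-07).

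Tk1 (11:117815526-117826092), the thymidine kinase of dividing cells, had 448, 462 and 427 in vector cells in vehicle, 434, 534 and 536 in vector cells in 4-OHT, 439.6, 400.2 and 549 in TFEB cells in vehicle and 230.3, 253 and 220.2 in TFEB cells in 4-OHT. The last group was again separate from the other 9 libraries. Tk1 fell 1.96-fold (log2 -0.97 ± 0.16, adjusted p = 2.51e-05), with a difference between the lines of -1.13 ± 0.23 (adjusted p = 0.000602).

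Tyms (5:30058202-30073617), which makes the thymidine nucleotide de novo, had 245, 250.2 and 245 in vector cells in vehicle, 351, 269 and 329 in vector cells in 4-OHT, 222, 206 and 243 in TFEB cells in vehicle and 319, 421 and 419 in TFEB cells in 4-OHT. In both lines the 4-OHT libraries lay above the vehicle libraries. Tyms rose 1.71-fold in TFEB cells (log2 0.78 ± 0.19, adjusted p = 0.00215). In vector cells the log2 difference was 0.35 (95% interval -0.04 to 0.74, adjusted p = 0.816).

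The subunits of ribonucleotide reductase and dUTPase fell less. Rrm1, the large subunit, fell 1.22-fold in TFEB cells, from 4078 ± 265 to 3347 ± 30.1 (log2 -0.28 ± 0.08, adjusted p = 0.0112), a call lost without a variance trend (adjusted p = 0.0547). Rrm2, the small subunit of dividing cells, fell 1.34-fold, from 2395 ± 53.9 to 1789.5 ± 142 (log2 -0.42 ± 0.10, adjusted p = 0.00148). Dut, which removes dUTP, fell 1.34-fold, from 2459 ± 136 to 1840.2 ± 56.3 (log2 -0.42 ± 0.09, adjusted p = 0.000538).

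For these 3 genes the vector cells stood on the other side of 0. The log2 differences with 4-OHT in vector cells were 0.18 (95% interval 0.01 to 0.36) for Rrm1, 0.35 (0.15 to 0.56) for Rrm2 and 0.23 (0.04 to 0.41) for Dut, none of them called. The differences between the lines, -0.47 ± 0.12, -0.78 ± 0.14 and -0.64 ± 0.13, were therefore larger than the falls within TFEB cells (adjusted p = 0.00559, 0.000135 and 0.000369). Without replicate 2 of vector cells in 4-OHT, Rrm2 was called higher in vector cells (log2 0.46, adjusted p = 0.0467).

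Rrm2b, the small subunit used outside S phase, differed by 0.04 in TFEB cells (95% interval -0.25 to 0.34), and Dtymk, thymidylate kinase, by 0.07 (-0.16 to 0.31). Rrm2b made up 14.9 ± 1.0% of the 2 small subunits per kb in TFEB cells in vehicle and 19.5 ± 0.9% in 4-OHT.

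**Figure D4:**
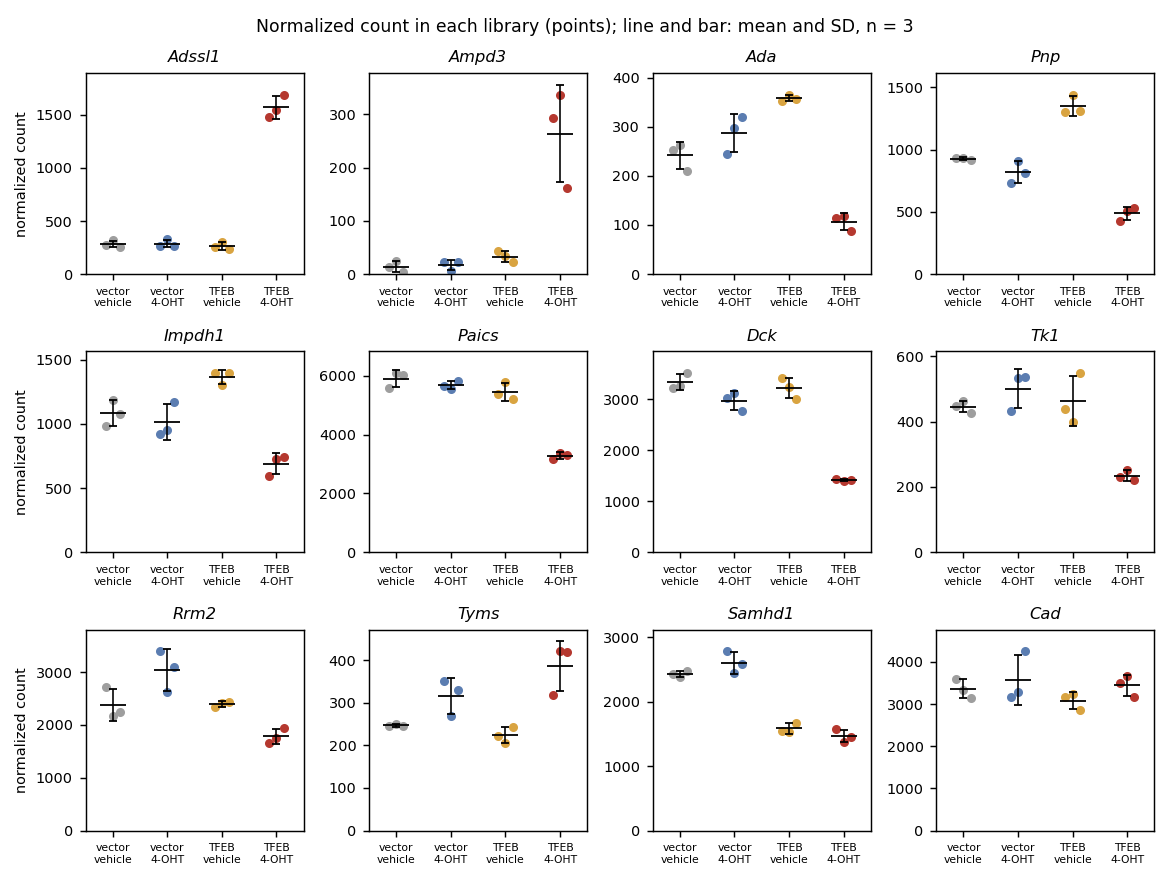
Normalized read counts (y axis, linear from 0) of selected genes in each of the 12 libraries (points), by group, with the mean and SD of 3 libraries as line and bar. Adssl1 and Ampd3 are high only in TFEB cells in 4-OHT, where Dck, Tk1, Ada and Pnp are at their lowest.

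In vehicle, TFEB cells differed from vector cells at 2 of the 37 genes, against 5.38% of all tested genes, 1 higher (2.70%, against 2.89% of all tested genes) and 1 lower (2.70%, against 2.49%), so both shares lie near the background. Pnp was 1.46-fold higher (log2 0.54 ± 0.12, adjusted p = 0.00397). Samhd1 (2:157097533-157135265), the enzyme that degrades deoxynucleoside triphosphates, had 2427, 2388 and 2481 in vector cells in vehicle, 2783, 2446 and 2585 in vector cells in 4-OHT, 1551, 1526 and 1675 in TFEB cells in vehicle and 1570.0, 1379 and 1450.3 in TFEB cells in 4-OHT. Every library of the TFEB line lay below every library of the vector line, and within each line the conditions overlapped. Samhd1 was 1.54-fold lower in TFEB cells in vehicle (log2 -0.62 ± 0.09, adjusted p = 1.56e-05), and 4-OHT differed from vehicle in TFEB cells by -0.11 (95% interval -0.29 to 0.07). Each line is 1 transduced population, so the TFEB fusion and other differences between the lines cannot be told apart here.

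In 4-OHT, TFEB cells were lower than vector cells at 18 of the 37 genes (48.6%, against 13.5% of all tested genes) and higher at 2 (5.41%, against 13.6%), Adssl1 and Ampd3, where 27.1% of all tested genes were called. The median log2 difference of the 37 was -0.26, against 0.05 for all tested genes. This comparison uses the same TFEB libraries in 4-OHT as those above. The lower genes include Pfas (log2 -0.53 ± 0.10, adjusted p = 6.66e-05), Umps (-0.38 ± 0.10, adjusted p = 0.00594), Atic (-0.29 ± 0.10, adjusted p = 0.0206) and Samhd1 (-0.83 ± 0.09, adjusted p = 8.13e-09), which were not called within TFEB cells. Umps is the only gene of the pyrimidine branch called in any of the 5 comparisons. Ampd3 was 15.8-fold higher on the log2(value + 1) scale (log2 3.98 ± 0.65, adjusted p = 1.19e-05).

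Genes around these pathways, from lists written for this purpose, were read in the same fit. Of all tested genes, 13.7% rose and 13.9% fell with 4-OHT in TFEB cells, with a median log2 change of 0.04. Folate one-carbon metabolism supplies carbon units to purines and thymidylate. Of 18 genes of it, 4 fell (22.2%) and none rose with 4-OHT in TFEB cells (median log2 -0.04). Of those called, the 3 with the largest falls were Mthfd2 (log2 -1.95, from 3273 ± 175 to 848 ± 67.0), Mthfd1l (-0.80) and Shmt2 (-0.70), all of the mitochondrial arm, with adjusted p of 4.44e-15, 2.61e-08 and 3.61e-08. Among 18 genes of nucleoside transport and breakdown, 3 rose (16.7%) and 1 fell (5.56%), with a median of 0.05. The 3 called genes with the largest changes were the nucleotidase Nt5c2 (1.47, adjusted p = 4.31e-11), the nucleoside transporter Slc29a1 (1.06, adjusted p = 4.26e-10) and Slc29a3 (0.60, adjusted p = 0.00555). Of 25 other kinases, salvage enzymes and pool sanitizers, 4 rose and 2 fell (median -0.01), with Uckl1 at 0.83, the mitochondrial thymidine kinase Tk2 at 0.71 and Gmpr2 at -0.59 (adjusted p = 0.0101, 0.00662 and 0.0219).

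Of 30 S phase genes, 10 fell and none rose with 4-OHT in TFEB cells (median log2 -0.21). The share that fell was 33.3%, against 13.9% of all tested genes. Among those that fell were Gins2 (-1.31, adjusted p = 4.14e-06), Gins1 (-0.75, adjusted p = 0.017) and Pold1 (-0.71, adjusted p = 1.72e-07). In vector cells none of the 30 was called and the median was 0.15. Several genes of deoxynucleotide supply are known to be transcribed in S phase, and Tk1, Rrm1, Rrm2 and Dut of this branch fell. Dck of the branch also fell, Tyms rose (log2 0.78, adjusted p = 0.00215), and Rrm2b, Dtymk and Samhd1 were not called. The part of cell cycle state in these values was not tested. Myc itself was at 30654 ± 1249 in TFEB cells in vehicle and 26345 ± 894 in 4-OHT, a log2 difference of -0.22 (95% interval -0.39 to -0.05, adjusted p = 0.052) that was not called. The 5 B lineage markers that fell in TFEB cells (Cd79b, Pax5, Ebf1, Vpreb1 and Igll1, log2 -0.97 to -1.54) moved in the same libraries. There Cd79a, Cd24a and Ptprc lay above every vehicle library of TFEB cells, and 2 of them were called higher.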

How the data were processed

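RNA of 12 cultured lymphoma samples was sequenced. Each deposited value is a signal, which the file's name calls a normalized read count. STAR 2.5.3, HTSeq 0.6.1, DESeq2 1.6.3 and mm10 are named per the submitters' processing notes, without roles. The sources used here do not give the annotation, filters or strand setting. All values above 0 in a library were whole multiples of its smallest value within 0.001, from which division of counts by 1 factor per library was inferred; no source used here states it. Genes that reached 10 in 3 or more libraries were tested with limma 3.58.1 (R 4.3.3) on log2(value + 1), with group means, a variance trend, 8 residual degrees of freedom and Benjamini-Hochberg adjustment (threshold 0.05). edgeR 4.0.16, DESeq2 1.42.0 and other settings were alternatives. The fit was also run on simulated counts with the same added spread for every gene, which real libraries need not have. No result given here rests on that run. Floors of 3 reads cover counting error only. Exon lengths and positions come from GENCODE M21 (GRCm38), promoters from RefSeq. Every gene of the set is named, and values by library are given for up to 3 called genes per branch, those with the largest change in TFEB cells. Other genes come from the context lists, up to 3 each. The genes and lists were chosen with earlier results of these data known. A planned comparison of isozyme proteins was not made. One marker gene of the planned lists is not reported here.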

Additional observations from a re-analysis of the deposited data

Results flagged for a closer look

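The effect of 4-OHT differed between TFEB cells and vector cells for 15 of the 37 genes, by limma's test of the difference at an adjusted p under 0.05. The difference in log2 change, TFEB minus vector cells, was above 0 for Adssl1 alone, at 2.56. It was below 0 for the others. In purine salvage it was -1.99 for Ada, -1.29 for Pnp and -0.67 for Hprt. In deoxynucleotide supply it was -1.13 for Tk1, -1.02 for Dck, -0.78 for Rrm2, -0.64 for Dut and -0.47 for Rrm1. In PRPP supply and purine synthesis it was -0.66 for Prps1, -0.68 for Paics, -0.42 for Ppat, -0.89 for Impdh1 and -0.35 for Impdh2. Nme2, a nucleotide kinase, had -0.41. The calls for Ppat, Impdh2 and Nme2 were lost under 11, 14 and 15 of 24 other settings.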

How the results depend on the processing

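Of 248 recomputed counts of called genes, 237 stayed within 1.5 times the value given. The rest concern small counts. Genes more positive in the difference between lines numbered 2, with Ampd3 beside Adssl1, under edgeR, DESeq2, TMM scaling, a pseudocount of 10, a minimum value of 50, and without vector vehicle replicate 3 or vector 4-OHT replicate 1 or 3. Genes higher in TFEB cells than in vector cells in vehicle numbered 3 with DESeq2 and 2 with array weights. Leaving out 1 library at a time, in TFEB cells 6 to 6 genes rose and 14 to 15 fell, in vector cells 0 to 1 rose and 0 to 0 fell, in the difference 1 to 2 were higher and 11 to 13 lower, in vehicle 1 to 1 were higher and 1 to 1 lower, and in 4-OHT 2 to 2 were higher and 17 to 19 lower. Genes not called changed sign. In TFEB cells Atic ran from -0.11 to 0.019 over the left-out libraries, Gmps from -0.045 to 0.030, Adss from -0.021 to 0.070, Ampd2 from -0.053 to 0.051, Uck2 from -0.054 to 0.054 and Dtymk from -0.017 to 0.13, and in vector cells Ampd3 from -0.24 to 0.97. Sign also changed for Gmps with array weights (0.019), Adss with edgeR (-0.0082) and upper-quartile scaling (-0.0050) and Ampd2 with TMM scaling (0.0045), and, without vector 4-OHT replicate 2, TFEB vehicle replicate 1 and TFEB 4-OHT replicate 2 together, for Gmps (0.029), Adss (-0.036) and Dtymk (-0.0077). The difference between lines was lost for Ppat, Impdh2 and Nme2 under 11, 14 and 15 of 24 settings, with adjusted p up to 0.123, 0.127 and 0.225, and for Rrm1 without a variance trend (0.0524). Lower in 4-OHT than vector cells, Atic was lost under 5 settings, and Umps (0.0586) and Nme2 (0.075) without a variance trend. The cause was not tested. Over 18 same-numbered pairs of libraries the correlation of deviations from the group means was -0.115 to 0.165, and 4 of 12 libraries correlated best with their own number. Such correlations cannot tell whether same-numbered libraries shared a culture or a day. With the number as a replicate block, 6 genes rose and 14 fell in TFEB cells, 0 and 0 in vector cells, 1 and 14 in the difference, 1 and 1 in vehicle and 2 and 19 in 4-OHT. Without those 3 libraries, each the top of its group by number of genes with reads and left out by a choice made after seeing the data, 6 rose and 14 fell in TFEB cells and 1 and 12 in the difference. Ampd3, at few counts outside 1 group, is limited by depth.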
